A study of Mus musculus with 4 samples.

Results

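The deposited list of regions whose chromatin accessibility differed between naive T helper cells of the mediastinal lymph node and regulatory T (Treg) cells of the lung is described here. All of its rows were taken, which gave 6516 regions out of 52537 in the merged 6 pairwise lists of the study. Accessibility was measured by ATAC-seq, in which a transposase cuts and tags open chromatin. Both populations came from mice sensitised and challenged with house dust mite (HDM) extract and were sorted at day 15, with 1000 cells and 3 biological replicates each per the labels' protocols. Naive cells were gated as CD3+CD4+CD44loCD62Lhi. Treg cells were gated as CD3+CD4+CD25hiCD30L- from lung with airways, so Foxp3, the defining factor of the lineage, was not part of the gate. Tissue and cell type differ together between the groups and cannot be told apart. The labels conflict on naive cells: 1 label gives lung and airways where the protocol gives the node, and 1 description gives D10 where the title gives day 15, as it does for other effector cells. The title and the protocol were followed. The other populations of the study, sorted from lung with airways in the same HDM model, are Th2 cells (CD44+ST2+CD30L+) and other effector cells (CD44+ST2-CD30L+). ST2 is the product of Il1rl1, so that gene was part of their gates.

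Naive T helper cells circulate through lymph nodes in a quiescent state, held there by factors such as Tcf7, Lef1, Foxp1 and Bach2 and guided by homing receptors such as Ccr7. Treg cells restrain immune responses through Foxp3, the IL-2 receptor, Ctla4 and IL-10. In tissues such as the lung they also take on receptors for alarmins, tissue chemokines and repair factors, among them the IL-33 receptor Il1rl1, Ccr8 and amphiregulin. Most regions that distinguish such cell states lie away from promoters, in enhancers inside or near genes.

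Each row holds a position and 1 deposited fold, read as the log2 ratio of naive over Treg cells. A fold is the authors' own value over the replicates and carries no error, p-value or replicate value in the list, so no difference below has a replicate check of its own. Sizes of folds are given without sign and the population with more signal is named, unless a minus sign shows naive minus Treg. The sign follows the order of the populations in the list's name, so the direction at genes that define either population is no independent evidence. The regions fit the mouse build GRCm38, which is used for all positions.

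The promoters with a listed region are shown first because there a region covers a gene's start itself, although some regions covered the starts of several genes. Of 27025 genes with a start site in the RefSeq table, 125 (0.463%) had a region higher in naive cells over the window from 250 bases before to 50 after the start, and 226 (0.836%) had one higher in Treg cells. Of the 262 genes on the fixed gene lists, 197 had a start site in that table, so the others could not be found here. The fixed gene lists contributed 12 genes to the Treg side. These were Itgb8 (8.39), Hopx (8.28), Ccr8 (8.08), Tnfrsf8 (7.55), Il9r (7.35), Fgl2 (6.99), Pparg (6.65 and 4.71), Areg (6.39), Il1r2 (6.33), Cebpa (5.68), Tbx21 (5.29) and Ebi3 (5.13). They contributed 4 to the naive side, namely Sox4 (8.40), Themis (8.15), Zbtb7b (6.87) and Igfbp4 (5.80). The 250 bases before the start follow for 4 Treg-side and 3 naive-side promoters, each wholly inside its region, from RefSeq on GRCm38.p6 and written along the gene's strand. Capitals mark a match to any of the 7 motifs given after them.
Ccr8, chr9:120091883-120092132, plus strand: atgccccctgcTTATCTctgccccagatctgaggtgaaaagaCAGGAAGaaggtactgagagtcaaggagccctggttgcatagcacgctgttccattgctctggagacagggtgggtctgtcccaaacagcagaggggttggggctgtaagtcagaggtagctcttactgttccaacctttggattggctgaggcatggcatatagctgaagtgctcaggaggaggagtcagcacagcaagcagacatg
Tnfrsf8, chr4:145315165-145315414, minus strand: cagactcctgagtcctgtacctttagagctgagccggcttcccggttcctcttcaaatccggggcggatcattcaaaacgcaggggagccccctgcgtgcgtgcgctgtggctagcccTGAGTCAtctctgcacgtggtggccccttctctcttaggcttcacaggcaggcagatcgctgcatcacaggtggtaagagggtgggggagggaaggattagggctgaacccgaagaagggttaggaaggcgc
Fgl2, chr5:21372423-21372672, plus strand: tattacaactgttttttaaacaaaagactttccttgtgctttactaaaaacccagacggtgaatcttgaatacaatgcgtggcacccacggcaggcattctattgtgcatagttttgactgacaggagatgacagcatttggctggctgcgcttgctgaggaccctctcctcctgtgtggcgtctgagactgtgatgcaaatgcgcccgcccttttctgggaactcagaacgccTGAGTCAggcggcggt
Itgb8, chr12:119238277-119238526, minus strand: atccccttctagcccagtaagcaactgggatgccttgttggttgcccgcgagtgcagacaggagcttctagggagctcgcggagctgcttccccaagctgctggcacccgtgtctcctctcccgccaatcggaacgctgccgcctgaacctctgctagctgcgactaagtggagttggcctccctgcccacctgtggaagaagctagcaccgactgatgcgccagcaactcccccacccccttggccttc
Themis, chr10:28668110-28668359, plus strand: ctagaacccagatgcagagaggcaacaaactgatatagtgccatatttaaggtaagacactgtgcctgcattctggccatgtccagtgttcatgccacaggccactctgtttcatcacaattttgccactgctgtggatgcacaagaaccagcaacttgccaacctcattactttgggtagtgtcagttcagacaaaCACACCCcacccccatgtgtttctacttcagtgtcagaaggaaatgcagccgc
Igfbp4, chr11:99040994-99041243, plus strand: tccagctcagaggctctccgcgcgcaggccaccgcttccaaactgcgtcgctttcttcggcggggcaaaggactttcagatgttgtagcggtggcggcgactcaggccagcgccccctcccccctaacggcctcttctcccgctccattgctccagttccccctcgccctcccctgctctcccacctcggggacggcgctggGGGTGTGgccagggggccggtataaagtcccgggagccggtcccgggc
Sox4, chr13:28953700-28953949, minus strand: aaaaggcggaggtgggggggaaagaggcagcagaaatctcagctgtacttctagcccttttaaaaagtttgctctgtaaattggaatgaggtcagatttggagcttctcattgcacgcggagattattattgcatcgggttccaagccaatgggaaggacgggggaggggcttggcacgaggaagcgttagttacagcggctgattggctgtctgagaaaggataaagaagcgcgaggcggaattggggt

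Ccr8 is a chemokine receptor of tissue Treg and Th2 cells, Tnfrsf8 encodes CD30, and Fgl2 is a secreted suppressor molecule of Treg cells. Itgb8 encodes the integrin chain that activates TGF-beta on the Treg surface. Themis acts in T cell receptor signalling during thymic selection, Igfbp4 binds insulin-like growth factors, and Sox4 is an HMG-box factor of lymphocyte development. The capitals show 1 ETS match and 1 GATA match upstream of Ccr8, 1 AP-1 match each upstream of Tnfrsf8 and Fgl2, and 1 KLF match each upstream of Themis and Igfbp4. No match was found in the windows of Itgb8 and Sox4.

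The motifs were searched on both strands of the whole windows of 300 bases. AP-1, spelled TGANTCA, was found in 9.84% (24 of 244) of windows with a Treg-higher region, in 4.41% (6 of 136) of windows with a naive-higher region and in 6.75% of all 32851 windows. The exact 95% binomial intervals, which cover counting error only, were 6.40 to 14.3% and 1.64 to 9.36%. They overlap. TCF7/LEF1, spelled CTTTGA, was found in 11.1% of Treg-side, 15.4% of naive-side and 13.8% of all windows. GATA, spelled AGATAA, was at 6.15%, 8.09% and 9.99% in the same order, and KLF, spelled GGGTGTG, at 8.61%, 9.56% and 6.93%. ETS (CAGGAAG, at 11.9%, 12.5% and 10.8%) and RUNX (TGTGGT, at 12.3%, 13.2% and 14.0%) differed less. The NF-kB consensus was in 2 of the Treg-side windows, 0 of the naive-side windows and 46 of all windows. The windows differed more in base composition. A GC content above 60% was found in 45.5% of Treg-side windows against 30.1% of naive-side windows and 27.0% of all windows, with median GC of 58.8%, 53.0% and 52.4%.

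The list held more regions higher in Treg than in naive cells. Of the 6516 regions, 3491 (53.6%) were higher in Treg cells and 3025 (46.4%) were higher in naive cells. The folds were large throughout, as the plot of folds shows. Naive-higher regions had a median fold of 5.32 with quartiles of 4.72 and 6.21 and a range of 3.79 to 9.77. Treg-higher regions had a median of 5.72 with quartiles of 5.05 and 6.62 and a range of 3.81 to 9.34. No region had a fold under 3.79, so the smallest entries of both sides lie at about the same size. Folds of at least 8 were held by 102 naive-higher regions (3.37%) and 134 Treg-higher regions (3.84%). Naive-higher regions were wider, with a median of 600 bases against 517 bases.

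**Figure D1:**
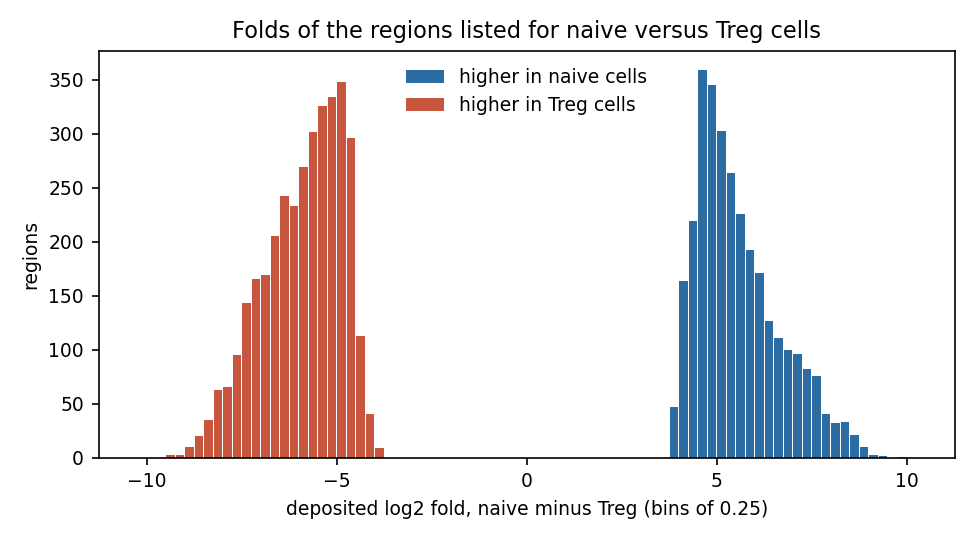
Number of listed regions (vertical axis) by deposited log2 fold, naive minus Treg (horizontal axis). Blue bars to the right are the 3025 regions higher in naive cells and red bars to the left the 3491 higher in Treg cells, with no region of a fold smaller in size than 3.79.

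At many regions the fold against other effector cells was the same, apart from a constant, as the listed fold. All 3025 naive-higher regions were also in the list of naive against other effector cells, so none was particular to the comparison with Treg cells. At 1971 of the 3025 (65.2%) the deposited fold of naive over other effector cells was within 0.02 of the fold of naive over Treg cells. Of the Treg-higher regions, 2761 were also in the list of other effector against Treg cells, and at 2428 of them (87.9%) the size of that fold minus the size of the listed fold was -0.17, within 0.02. With Th2 cells the folds of naive-higher regions were less alike. Of 1422 also in the list of naive against Th2 cells, 590 (41.5%) had a fold within 0.02 of the commonest difference of 0.18. Another 218 were larger and 194 smaller by over 1. Of 520 Treg-higher regions also in the list of Treg against Th2 cells, 346 (66.5%) were within 0.02 of the commonest difference of 0.01. There, 12 were larger and 81 smaller by over 1. These lists share the naive or the Treg libraries. The arithmetic of such equal folds is that the lower populations had the same value there, apart from a constant. Why the low values coincide was not tested.

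Both kinds of region lay mostly far from the gene starts available. Starts were held for 17492 of 21887 protein-coding genes, so distances can be too long and shares near a start too low. A region inside Extl3, for example, lay 2024212 bases from its nearest available start. The median distance from a region's midpoint to the nearest available protein-coding start was 36054 bases for Treg-higher and 36968.5 bases for naive-higher regions. Regions within 1 kb of a start made up 5.95% (201 of 3377, exact 95% binomial interval 5.18 to 6.80%) of the Treg-higher and 3.83% (112 of 2924, 3.16 to 4.59%) of the naive-higher regions. The intervals treat regions as independent and cover counting error only. Among regions at or above the median fold of the list the shares were 5.19% and 4.82%, and within 5 kb of a start they were 11.6% and 9.68%, with intervals that overlap. Beyond 1 kb the distributions ran close together, as the plot of distances shows, with 5.66% against 5.85% at 1 to 5 kb and 23.8% against 24.2% beyond 100 kb. A gene held the midpoint of 56.4% of Treg-higher and 58.9% of naive-higher regions. The folds ordered differently by position: naive-higher regions near a start had a larger median (5.72) than those further away (5.31), while Treg-higher regions had a smaller one (5.51 against 5.74).

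**Figure D2:**
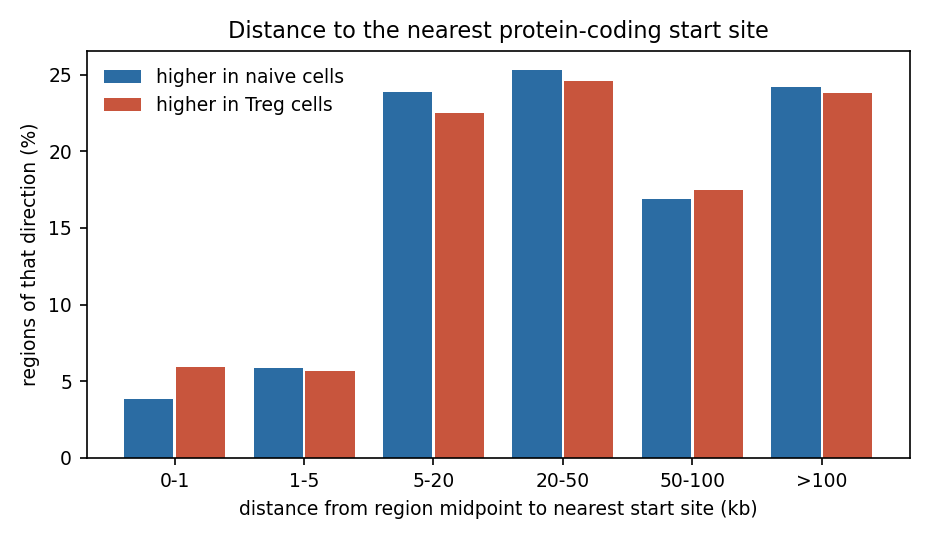
Percent of the regions of each direction (vertical axis) by distance from region midpoint to nearest available protein-coding start site in kb (horizontal axis). Blue is for higher in naive and red for higher in Treg cells. The bars differ most at 0 to 1 kb, at 3.83% for naive-higher and 5.95% for Treg-higher regions.

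Regions were then given to the gene that holds the midpoint, or else to the nearest gene end within 100 kb. At least 1 naive-higher region fell to 1826 of 21887 protein-coding genes (8.34%) and at least 1 Treg-higher region to 2098 (9.59%), with 357 genes on both sides. These shares are the background against which the gene lists below are read. Some genes are on several lists and are counted in each, so the lists are not separate findings. Counts per gene were not corrected for gene length. Most genes with a region, 2326 of 3567, had only 1.

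Genes that define or mark Treg cells were on the Treg side, with 1 exception among those with a region. Of 30 such genes, 20 (66.7%) had at least 1 Treg-higher region and 1 had a naive-higher region, over 77 and 1 regions. Their median signed fold was -6.44, against -4.55 over the whole list, but a signed median depends on the share of each direction. By size, their Treg-higher regions had a median of 6.44, against 5.72 for all Treg-higher regions. Foxp3 had 1 region, at chrX:7583946-7584606 inside the gene and 3.8 kb from its start, with a fold of 8.47. Ctla4, the inhibitory receptor that takes up CD80 and CD86, had 6 regions with folds of 8.18, 7.80, 8.26, 8.14, 6.74 and 7.30. Only the fifth, at chr1:60911620-60912053, lay inside the gene, and the first 4 lay 55.4, 49.0, 33.7 and 21.8 kb before its start. Its neighbour Icos, a costimulatory receptor, had 5 regions at 6.28, 5.74, 4.47, 6.63 and 7.51, all outside the gene. The Ctla4 and Icos regions lie along 1 stretch of chromosome 1 and were all on the Treg side.

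Il10, the gene of the suppressive cytokine IL-10, had 9 regions with folds from 6.06 to 7.92. A run of 4 of them, each within 10 kb of the next, took up 11.4 kb at chr1:130999641-131011047, outside the gene. The zinc finger factor Ikzf2, or Helios, had 10 regions with folds from 4.44 to 8.45. Klrg1, a receptor of terminally differentiated effector Treg cells, had 6 (6.38 to 8.58), the inhibitory receptor Tigit had 5 (5.05 to 7.84), and Cd83 had 7 (4.88 to 6.94). Tnfrsf1b, the TNF receptor that supports Treg cells, had 1 region at 8.58. The IL-2 receptor chain Il2ra, whose protein CD25 was used in the sort, had only 1 region at 5.85, at chr2:11655459-11655756. The only naive-higher region of these genes was at Izumo1r, the folate receptor 4 gene (4.96). Tnfrsf4, Lag3, Nt5e, Lrrc32, Gpr83, Capg and Gzmb had no listed region. Fgl2 and Ebi3 counted as none here because their promoter regions fell to neighbouring genes by the rule.

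Genes of tissue Treg cells were mostly on the Treg side. Of 25 genes, 21 (84.0%) had a Treg-higher region and 2 had a naive-higher one as well, over 74 and 3 regions. The IL-33 receptor Il1rl1 had 9 Treg-higher regions with folds of 6.95, 6.85, 7.49, 5.42, 6.88, 5.09, 5.27, 7.29 and 5.22. The nuclear receptors Rora and Pparg had 10 (4.59 to 8.40) and 6 (4.71 to 6.65), and 2 of the Pparg regions covered start sites. Amphiregulin, Areg, a growth factor of tissue repair, had 3 at 7.14, 6.80 and 6.39, lying 15.3, 12.8 and 0.1 kb before its start. The TGF-beta activating integrin had regions at both chains: Itgav held 5, of which the pair at chr2:83700441-83701407 and chr2:83695210-83696043 had the largest folds of the Treg side (9.34 and 9.33). Itgb8 held 3 (7.82, 5.66 and 8.39). Gata3, Cxcr6, Vdr and Penk had no listed region.

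Regions of tissue Treg genes differed in whether a list with Th2 cells held them. At the Il1rl1 region with a fold of -7.49 for naive minus Treg, naive minus Th2 was -7.77, in cells gated for its product. At the Pparg promoter region with -6.65 for naive minus Treg, naive minus Th2 was -7.23, and at the first Areg region with -7.14 it was -6.00. The other 2 Areg regions, the promoter among them, and the Treg-higher regions of Ccr8, Ccr6 and Itgb8 were not in the list of naive against Th2 cells. At the Itgb8 promoter the other pattern was seen, with 6.15 for Treg minus Th2. The Hopx promoter (8.29) and the Tnfrsf8 promoter (7.56) had Treg minus Th2 folds of the same kind. Elsewhere at Tnfrsf8, the regions with -6.34 and -4.50 for naive minus Treg also had such folds (5 and 6.01). Those with -4.62 and -7.82 instead had naive minus Th2 folds, of -8.02 and -5.56. Treg identity genes differed in the same way. Foxp3 had 5.65 for Treg minus Th2, and the Ctla4 regions with -8.26 and -8.14 had 8.25 and 8.15. Some regions of Il10, Klrg1 and Ctla4 were in the list of naive against Th2 cells. At the Il10 region with -7.92, naive minus Th2 was -6.10, and at the Ctla4 region with -8.18 it was -5.06. The Il10 regions with -7.56, -6.06 and -7.07 were not in that list. These lists share Treg or naive libraries with the list described here.

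The list of other effector against Th2 cells shares no population with naive or Treg cells, and all of its 28175 regions are higher in Th2 cells. It makes up 53.2% of the merged regions of the study. Of the Treg-higher regions, 42.4% (1481 of 3491, 40.8 to 44.1%) overlapped it by at least 1 base, and of the naive-higher regions 9.22% (279 of 3025, 8.22 to 10.3%). Read the other way, these were 5.26% and 0.990% of the Th2 list. Both shares lay below the 53.2% over all regions. That figure counts every region of the Th2 list itself, so neither share is read as low. Treg-higher regions were more often among Th2 regions than naive-higher ones were, by intervals that cover counting error only.

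Genes of NF-kB signalling and of TNF receptors were mostly on the Treg side as well. Of 20 such genes, 12 had a Treg-higher and 4 a naive-higher region. Among the 12, Tnfrsf1b, Tnfrsf9 and Tnfrsf18 were also counted as Treg identity genes. Tnfrsf8 had 8 Treg-higher regions, from 4.40 to 7.82. It encodes CD30, whose ligand CD30L was the marker of the gate. Tnfsf8, the gene of CD30L, had 2 regions and both were higher in naive cells. The NF-kB inhibitor Tnfaip3, or A20, had 6 Treg-higher regions (5.13 to 7.80), and the subunit gene Nfkb1 had 4 (5.19 to 6.41). Naive-higher regions were at Nfkbia (5.19), Map3k14 (6.06), Tnfrsf1a (6.55) and Tank (6.39), of which Tank had 2 Treg-higher regions too. Factors of activation were on both sides. Of 22 AP-1, IRF, NFAT, Nr4a and Egr genes, 11 had a Treg-higher region and 5 a naive-higher one, but with genes within 10 kb only the counts were 4 and 3. Among the 11, Batf, Irf4 and Maf were also counted as tissue Treg genes. Batf, a partner of AP-1 needed for tissue Treg cells, had 5 Treg-higher regions (4.77 to 6.91) and Nfatc2 had 2. Nr4a3, an immediate early gene of T cell receptor signals, had 3 naive-higher regions (5.55, 7.40 and 6.46), and Nfatc1 had 2.

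Homing and adhesion genes were more often on the Treg side, and lymph node homing genes were not. Of 28 homing and adhesion genes, 14 had a Treg-higher and 6 a naive-higher region. Among the 14, Ccr4, Ccr6, Ccr8, Itgae, Itgav, Itgb8 and Cd44 were also counted as Treg identity or tissue Treg genes. Among the 6, Ccr7 and S1pr1 were also counted as naive genes. The lymph node homing genes Ccr7 and S1pr1 had naive-higher regions only. Ccr7 had 6, with folds of 5.03, 8.40, 4.30, 7.19, 6.87 and 4.35, of which 4 lay in 8.4 kb around the low-coordinate end of the gene. S1pr1, the receptor for exit from nodes, had 1 at 5.01. On the Treg side were Cd44 with 3 (7.01, 8.23 and 7.81), Ccr4 with 2, Ccr6 with 3, Gpr15 with 3, Itga2 with 3 and Selplg with 1 at 7.88. Cd44 was a gate marker for naive cells. The chemokine receptor Cxcr4 had 2 naive-higher and 3 Treg-higher regions.

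Among 34 cytokine receptor, STAT and SOCS genes, 14 had a Treg-higher and 9 a naive-higher region. Of the TGF-beta receptor genes, Tgfbr1 had no listed region, Tgfbr3 had 11 (4.40 to 8.37) and Tgfbr2 had 6 (5 to 7.68) against 1 Treg-higher region at 6.29. Il23r had 3 naive-higher regions, and Il12rb2 (7.60), Il21r (6.68), Ifnar1 (6.14) and Socs1 (6.58) had 1 each. On the Treg side Il1r2, the decoy receptor of IL-1, had 4 (5.30 to 8.14), Stat4 had 4 (5.17 to 6.24) and Il18rap had 3. Il2rb, Il10ra and Ifngr1 had 1 each.

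Effector genes with a region were mostly on the Treg side. Of 22 effector cytokine and factor genes, 10 had a Treg-higher region and 2 a naive-higher one. With only the gene that holds the midpoint the counts were 4 and 0. Of the 22 Treg-higher regions, 9 were at Il10 and 3 at Areg, which like Tnfsf11 were already counted on the Treg lists. No listed region was at the other 10 genes, among them Il4, Il5, Il13, Ifng, Tnf and Il2. Rad50, which holds the control region of the Th2 cytokine cluster, had 1 at 6.87. Il17a (6.53), Il9 (5.83), Csf2 (4.50) and Tbx21 (5.29) had 1 each. Hopx, a homeodomain-only protein of effector and induced Treg cells, had 2 at 8.28 and 8.77. The naive-higher regions were 4 at Eomes (5.99 to 7.36), all 72.8 to 90.4 kb from its start, and 3 at Il21 (4.50 to 7.92).

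Genes of the naive state and of quiescence were mostly on the naive side, with more exceptions than the Treg lists had. Of 27 genes, 19 (70.4%) had a naive-higher region and 9 (33.3%) a Treg-higher one, over 84 and 13 regions. Their median signed fold was 5.32. By size, their naive-higher regions had a median of 5.535, against 5.32 for all naive-higher regions. Tcf7, the gene of TCF-1, had 8 regions with folds of 4.71, 6.21, 8.39, 8.73, 7.46, 4.69, 9.77 and 7.29 from low to high coordinate. The first 4 lay inside the gene. The last 4 lay 26.6 to 35.6 kb before its start, within 9.4 kb, and 1 of these, at chr11:52313875-52314897, had the largest fold of the whole list. Its relative Lef1 had 10 regions (4.01 to 8.26), all inside the gene. Bach2, which represses effector programmes, had 13 naive-higher regions (4.09 to 8.50), more than any other gene, and 1 Treg-higher region (5.19). The survival gene Bcl2 had 7 (4.99 to 7.24), Dapl1 had 5 (5.28 to 7.09), Sox4 had 4, and the chromatin organiser Satb1 had 2, of which that at chr17:51879015-51880707 had a fold of 9.19.

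Exceptions within the naive list were shared or Treg-sided genes. Foxp1, Foxo1 and Bach2 had regions on both sides. Bcl11b (4.69), Il6ra (5.41), Il6st (4.67) and Cd27 (6.38) had 1 Treg-higher region each, and Ets1 (6.56 and 6.95) and Myb (4.89 and 6.06) had 2 each. Klf2 and Il7r, both genes of resting T cells, had no listed region. Of 20 genes of the T cell receptor and costimulation, which all T cells use, 10 had a naive-higher and 6 a Treg-higher region. The kinase Prkcq had 5 naive-higher regions (5.46 to 8.62) and the CD3 zeta chain Cd247 had 5 (5.09 to 7.33). Cd3e, Cd3g, Cd3d and Cd4 had none, nor did Lck, Zap70, Lat and Cd5.

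**Figure D3:**
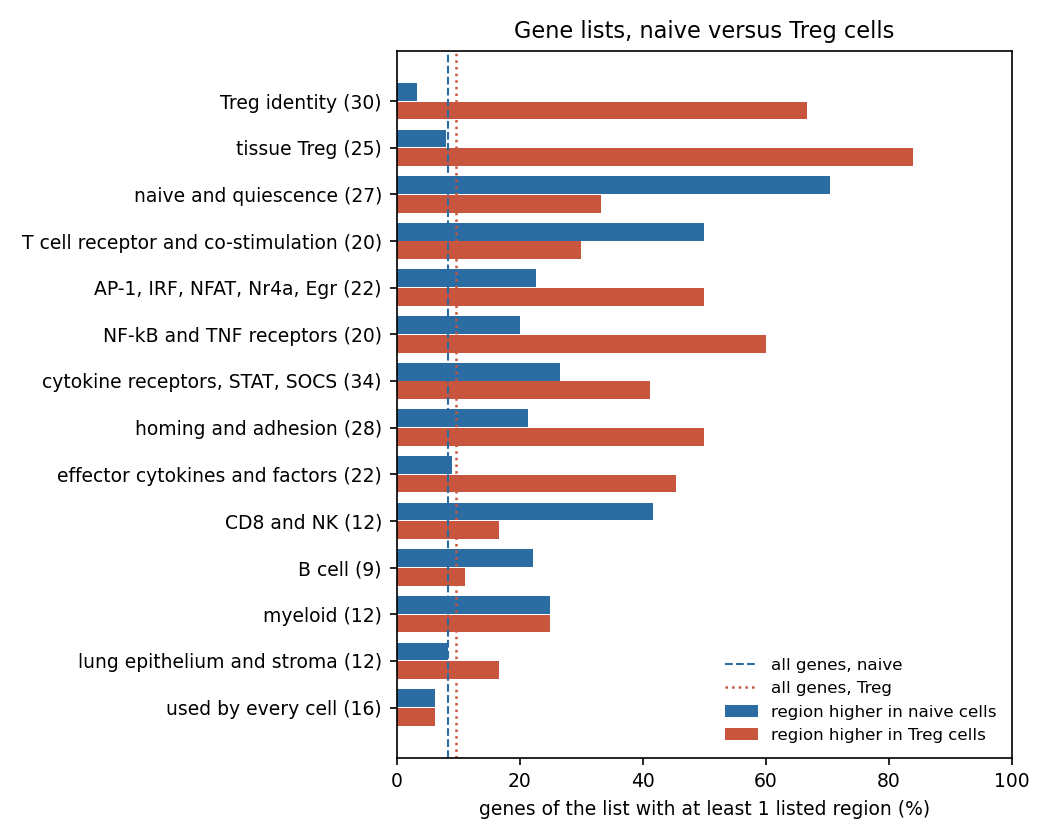
Percent of the genes of each list (horizontal axis, number of genes in brackets) with at least 1 region higher in naive cells (blue) or in Treg cells (red), with the share over all 21887 genes as a dashed blue (8.34%) and a dotted red (9.59%) line. The tissue Treg list reaches 84.0% and the Treg identity list 66.7% on the red side, and the naive list 70.4% on the blue side.

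Markers of other cells were looked at in the same way. Of 12 CD8 and NK cell genes, 5 had a naive-higher and 2 a Treg-higher region. These were Cd8b1, Prf1, Klrd1, Klrk1 and Zbtb7b against Gzmk and Runx3. Zbtb7b is the factor of the CD4 helper lineage, so 4 of the naive-higher genes are markers of CD8 or NK cells. Among 9 B cell genes found in the table, 2 (Ebf1 at 4.12 and 4.61, Spib at 5.53) had naive-higher regions and 1 (Blk) had Treg-higher ones, while Ms4a1, Pax5, Cd79a, Cd79b and Cr2 had none. Myeloid genes split 3 to 3 of 12, with Cebpb at 6.36 and 7.57 on the Treg side, and Csf1r, Itgax, Lyz2, Cd14, Mpo, Siglecf and Mrc1 had none. Of 12 genes of lung epithelium and stroma, 2 had Treg-higher regions, both endothelial (Pecam1 and Cdh5), Cdh5 also had a naive-higher one (4.68), and 10, among them Sftpc, Epcam and Col1a1, had none. Of 16 genes that every cell uses, 1 (Hprt) had a naive-higher and 1 (Rpl3) a Treg-higher region. The part of other cells in these regions was not tested.

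Regions that lie near each other mostly shared their direction. Of 951 pairs of adjacent regions within 10 kb, 886 (93.2%) had the same direction, 369 naive and 517 Treg, and 65 were mixed. The longest run was on the Treg side, at Sh3rf1, with 7 regions in 19.3 kb. Cdk6, the cell cycle kinase, had a run of 6 in 15.8 kb, Rora of 6 in 15.7 kb and Nsmce2 of 6 in 17.8 kb. The longest naive runs had 5 regions, of which 1 was at Adamts20. By count of regions, Treg-higher genes were led by Atxn1 (12), Niban1 and Sh3rf1 (11 each), and Cdk6, Ikzf2 and Rora (10 each). Naive-higher genes were led by Bach2 (13), Tgfbr3 (11), Lef1 (10), and Cox10, Maml2, Pip4k2a, Slc4a4, St8sia1 and Tcf7 (8 each).

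**Figure D4:**
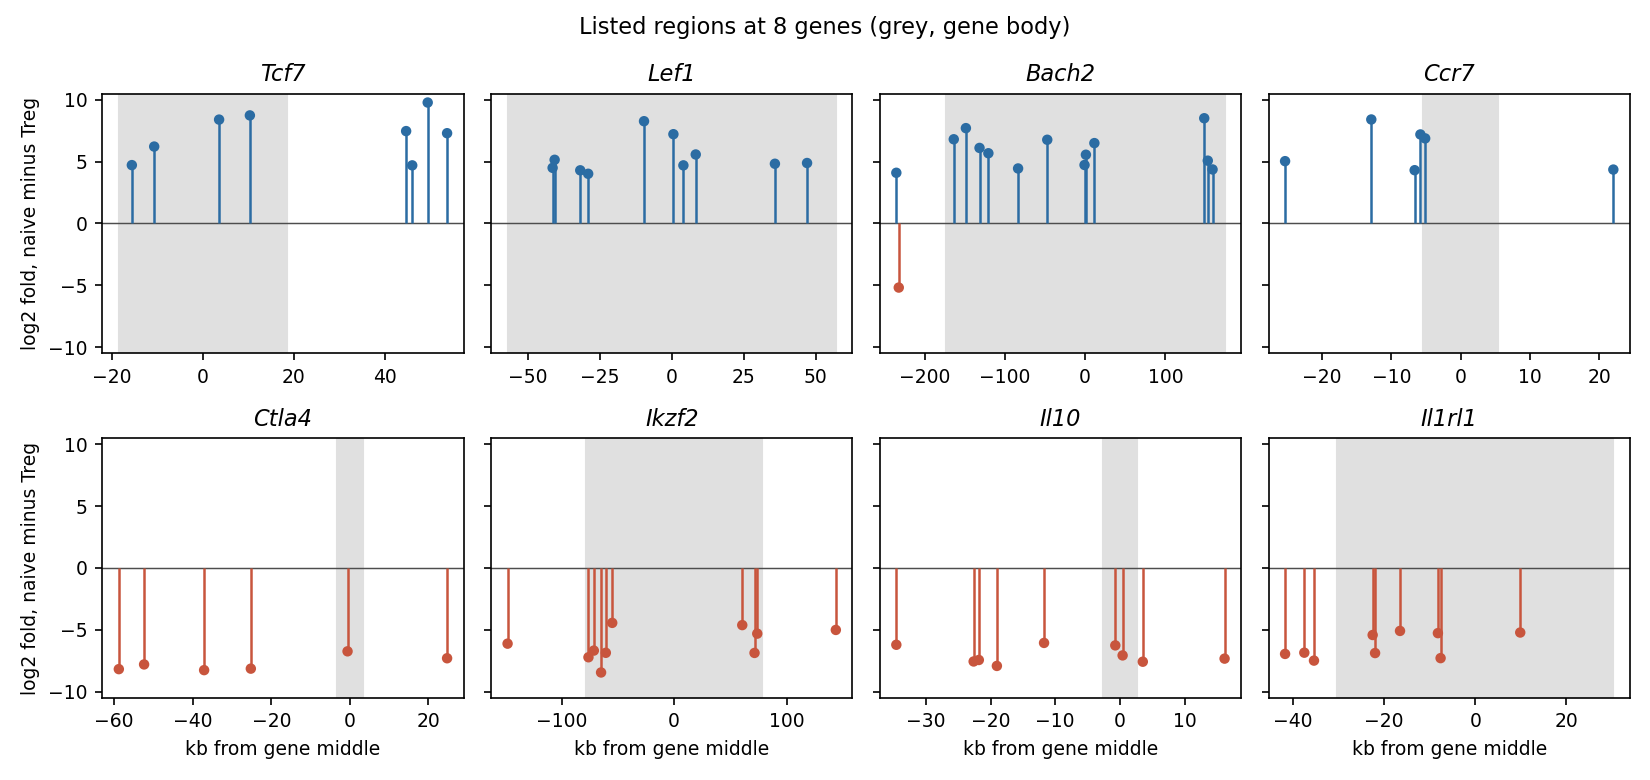
Deposited log2 fold, naive minus Treg (vertical axis), of every listed region given to 8 genes, by distance from the middle of the gene in kb (horizontal axis), with the gene body in grey. All regions of Tcf7, Lef1 and Ccr7 are above 0, all of Ctla4, Ikzf2, Il10 and Il1rl1 are below 0, and Bach2 has 13 above and 1 below.

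Some loci held regions of both directions close together, with distances between regions measured from midpoint to midpoint. At Ccr8 the region over the promoter shown above was higher in Treg cells by 8.08, and a region 7.0 kb away, at chr9:120084306-120084798, was higher in naive cells by 6.04. At Stat3 a naive-higher region (7.44) and a Treg-higher region (6.08) lay 6.17 kb apart inside the gene, and 3 further Treg-higher regions followed (4.93, 4.34 and 7.03). Cd9, a tetraspanin, had such a pair at 6.16 and 7.34 with midpoints 1.32 kb apart. At Foxp1 the 3 Treg-higher regions (8.25, 5.16 and 7.42) came first along the chromosome and the 7 naive-higher ones (4.46 to 8.41) followed, so the directions did not interleave. Il9r likewise had 3 Treg-higher regions within 4.0 kb of its start and 2 naive-higher regions (8 and 6.21) 74.1 and 60.6 kb away. At least 3 regions in each direction were found at 7 genes: Wwox with 6 and 6, Foxp1, Akap13, Sgms1, Itpkb, Maml3 and Rftn1. Several of these are long genes, Wwox reaching 913078 bases.

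MicroRNA genes near the regions were counted as well. Of 1005 hairpins in the RefSeq table, 16 lay within 2 kb of a listed region, 10 of them near a Treg-higher one. In the whole list 53.6% of regions were Treg-higher. No share of other features in the same window was computed, so the count is not read as few or many. Mir148a, whose product acts in lymphocytes, was picked from these after their values were seen. Its Treg-higher region, at chr6:51270620-51271413 with a fold of 7.07, lay 710 bases from the hairpin. The mature arms are shown with the seed, bases 2 to 8, in capitals.
mmu-miR-148a-3p, chr6:51269829-51269850, minus strand: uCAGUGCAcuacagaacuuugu
mmu-miR-148a-5p, chr6:51269867-51269888, minus strand: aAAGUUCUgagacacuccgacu

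The direction also varied by chromosome. Chromosome 1, which holds Ctla4, Icos, Il10, Il1rl1 and Ikzf2, had the lowest share of naive-higher regions among the chromosomes with over 100 regions, at 35.7% (199 of 557, 31.7 to 39.9%). Chromosome 17 had the highest, at 59.2% (155 of 262, 52.9 to 65.2%). The list as a whole stood at 46.4%.

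The largest folds were often at genes on no list. On the Treg side they included regions near Gm4832 (9.25), Neb (9.24), Dusp1 (9.14), a phosphatase that restrains MAP kinases, Eed (9.05), a Polycomb subunit, and Arhgef28 (8.97). On the naive side they included a region at chr4:10769810-10770839 with no gene within 100 kb (9.29), Plaur (9.28), Strada (9.09), Uvrag (9.03), Unc80 (8.99) and Extl3 (8.98). Prkch combined the sides, with 9 Treg-higher regions (5.09 to 7.54) and 1 naive-higher region that at 8.86 exceeded each of them.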

How the data were processed

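Per the labels' protocols, the authors made ATAC-seq libraries of 4 sorted T helper populations: tagmentation lasted 30 minutes, amplification took 16 cycles, and sequencing was paired-end at 125 bases. The deposited lists give positions and a log2 fold per region from DiffBind, per the submitters' processing notes, which name build mm9 and give the tool no version. Not given in the sources used here: how reads were aligned, shifted and normalized, how peaks were called, and at what threshold regions were listed. Depth is unknown, and no counts or replicate values were in the lists. The log base was taken from DiffBind's usual output.

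Positions fitted GRCm38 and not a shifted map: 313 midpoints were within 1 kb of a RefSeq GRCm38.p6 start, against 166 after a shift of 10 kb. Folds were read as the population named first in the list minus the other one. At the 1 region with the same start and end in the lists among naive, Treg and Th2 cells the folds added up, with a residual of 0, which leaves the overall sign open. Values set beside a region from another list are those of a region overlapping it by at least 1 base. Genes came from 21887 protein-coding RefSeq genes, of which the start-site table held 17492. The 215 regions on sequences without a start in the start-site table were left out of start-site distances. For scale, the list held 205 regions on chromosome 18 and 10 on unplaced sequences. Named genes were members of 14 lists with a region, the 15 genes with most regions and 10 regions of largest fold per direction, and genes with at least 3 regions each way. Members, lists and rules were chosen with earlier results of these data known. Shares have exact 95% binomial intervals. No test over samples was possible. The equal folds across lists, the GC content and the microRNAs were examined after the data were seen. Alternatives covered fold size, windows, gene assignment, neighbour distance and overlap. Python 3.11.15, pandas 2.3.3, numpy 2.4.6 and SciPy 1.17.1 were used, and the scripts were tested on simulated regions. Some members of the gene lists are counted but not reported by name here.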

Additional observations from a re-analysis of the deposited data

How the results depend on the processing

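Keeping only regions at or above the median fold of 5.54 left 1291 naive-higher and 1976 Treg-higher regions, or 39.5% naive, with 933 and 1283 genes, 4.82% of naive-higher and 5.19% of Treg-higher regions within 1 kb of a start and 6.33% of Treg-higher regions within 1 kb of a gene end, against 7.88% in the whole list. With a window of 5 kb the shares near a start were 9.68% (naive) and 11.6% (Treg), and those near a gene end 17.6% and 18.9%, against 5.65% and 7.88% at 1 kb. With only the gene that holds the midpoint, 1345 genes had a Treg-higher region, as did 13 of the tissue Treg genes. Neighbours within 50 kb shared a direction in 84.3% of pairs. A reciprocal overlap of 50% gave 6.38% of naive-higher regions in the Th2 list. Of the main values recomputed, 15 moved and 24 did not, where a count moved if it changed by over 1.5 times and a share if it left its interval. Of the counts of the other gene lists, 35 moved and 40 did not. Part of this was fixed by the settings. A cut at the median fold had to remove many regions, and a wider window could only raise the shares near a start or end. Leaving out the few regions on unplaced sequences could change little. The tallies are therefore no measure of how firm the results are. With the midpoint rule the tissue Treg share, 13 of 25, fell below that of Treg identity genes, 17 of 30. Small marker lists changed order: B cell genes went from 2 naive and 1 Treg to 0 and 1 at or above the median fold, and myeloid genes from 3 and 3 to 1 and 2. Beyond what a setting fixes, the reasons for these changes were not tested. Leaving out a replicate could not be done, and depth behind a fold is unknown. No paired analysis was possible because the lists carry no replicate values.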

Other observations

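Of the 3025 naive-higher regions, 279 (9.22%) also lay in the list of Th2 over other effector cells. They included a group of genes known from B cells and antigen presentation, picked after their values were seen. Genes of the T cell receptor and costimulation list were among them too, such as Prkcq (7.26), Ptprc (7.1) and Thy1 (6). Mef2c (5.97 and 5.49), Spib (5.53), Fcrl1 (5.46), Btk (5.42), Fcgr2b (5.04), H2-DMb1 (5.01 and 4.57), Fcmr (4.85), Blnk (4.63) and Syk (4.41) were higher in naive than in Treg cells by these deposited log2 folds. At the same places other effector minus Th2 was -5.37 and -7.09 for Mef2c, -5.15 for Spib, -5.25 for Fcrl1, -3.98 for Btk, -4.93 for Fcgr2b, -6.41 and -4.03 for H2-DMb1, -4.22 for Fcmr, -6.46 for Blnk and -7.59 for Syk. Of the 9 B cell markers in the gene lists, 6 had no listed region between naive and Treg cells, among them Ms4a1 and Pax5. Spib and Ebf1 had naive-higher regions, and Blk went the other way, with Treg-higher regions at 4.81 and 7.22. The part of other cells in these values was not tested.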
